A study of Homo sapiens with 4 samples.

Results

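The chaperonin genes described here are HSPD1 and HSPE1, which encode the mitochondrial chaperonin HSP60 and its lid HSP10, and TCP1, CCT2, CCT3, CCT4, CCT5, CCT6A, CCT7 and CCT8, which encode the 8 subunits of the cytosolic chaperonin CCT, also called TRiC. They were chosen by name, and each of the 10 symbols matched 1 row among the 60617 genes of the deposited tables. Their mRNA was measured in spheres of U87MG, an established human glioblastoma line, on day 14. The medium of both groups was DMEM/F12, to which N2, 2% B27 and 20 ng/ml of both EGF and bFGF had been added. One group of 2 poly-A libraries came from spheres given abemaciclib, which blocks the cell cycle kinases CDK4 and CDK6, and the other group of 2 from untreated spheres. The dose, and whether the untreated spheres received a vehicle, are not given in the sources used here, and nothing says that the libraries of a group came from separate cultures, so the p-values below reflect library-to-library spread alone, possibly technical.

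Chaperonins are barrels that enclose an unfolded protein and release it after rounds of ATP hydrolysis. HSP60 forms rings in the mitochondrial matrix that are closed by HSP10, and it folds proteins after their import; the human genes lie head to head. CCT is built of a pair of stacked rings, each holding every subunit once at a fixed place, and it carries its own lid. Actin and tubulin are its best known clients, and several WD40 proteins, among them G protein beta subunits and the mitotic regulator CDC20, also fold there. Prefoldin hands clients to CCT, and phosducin-like proteins act as its cofactors.

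The libraries held 23684260 and 33226884 expected counts (abemaciclib) and 27485206 and 33418075 (untreated). All 10 genes lay far above the filter on low counts, between 1632 and 14092 counts in a library, and together they took 0.189% and 0.190% of the counts in the abemaciclib libraries and 0.131% and 0.133% in the untreated ones. Mitochondrially encoded genes took 11.8% and 11.7% of the counts after abemaciclib and 4.27% and 4.66% in untreated libraries. With those genes left out before scaling, the log2 fold changes of HSPD1 and HSPE1 were 1.06 and 1.24, against 1.06 and 1.23 with them. As a check of the line, 8 glioma or neural markers summed to 4894 and 4948 CPM after abemaciclib and 7702 and 7117 CPM untreated, mostly vimentin (VIM), and their part in the results was not tested. Of them VIM, NES, CD44, OLIG2 and PROM1 were lower after abemaciclib (CD44 at 0.358 of the untreated level) and SOX2 was higher at 11 and 12 counts after abemaciclib and 1 and 2 counts untreated. GFAP, with 4 to 10 counts in a library, and S100B, with 0 to 3, were too low to be tested. CDKN2A, the gene of a natural CDK4 and CDK6 inhibitor, had 0 counts in each library. The 16 markers of other cell types summed to 96.5 and 91.5 CPM after abemaciclib and 90.3 and 93.5 CPM untreated. Of these 16, 5 were called higher, 5 lower and 4 were not tested. Over all tested genes 38.0% were called higher and 39.3% lower, beside which the counts of both marker sets are to be read. Of the neuron markers, SNAP25 was higher (mean 54.1 CPM after abemaciclib and 35.5 CPM untreated). SYP was lower (mean 0.962 CPM after abemaciclib and 2.98 CPM untreated). RBFOX3, with 5 to 12 counts in a library, did not pass (edgeR adjusted p = 0.36). The endothelial markers KDR (1.78-fold) and VWF (1.32-fold) were higher. The endothelial marker PECAM1 was lower (mean 1.14 CPM after abemaciclib and 9.78 CPM untreated). Of the macrophage markers, CSF1R was lower (mean 5.54 CPM after abemaciclib and 11.2 CPM untreated). CD14 was lower too, with 6 and 12 counts after abemaciclib and 19 and 21 counts untreated. PTPRC was higher, with 18 and 14 counts after abemaciclib and 4 and 3 counts untreated. ITGAM was not tested and AIF1 was at 0 in each library. Of the epithelial markers EPCAM was higher (2.25-fold), KRT8 was lower (0.381 of the untreated level), KRT18 did not pass and CDH1 was not tested. CPM here are counts scaled to library size after TMM normalization, which corrects for differences in composition.

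Promoter sequences are shown for the pair that changed furthest and for CCT3 and CCT2, the CCT subunits with the next largest changes after CCT6A. Windows of 250 bases before to 50 bases after an annotated start came from RefSeq (GRCh38.p14) and covered 9 of the 10 genes, in 12 windows. CCT6A is not among them. The HSPE1 window (chr2:197500129-197500428, plus strand) shares 204 bases with the first window of HSPD1 on the minus strand, and their start sites lie 105 bases apart. That first HSPD1 window is not printed. The second HSPD1 window, printed below, shares 0 bases with the HSPE1 window, and its start site lies 539 bases from that of HSPE1. Capitals mark the motifs searched on both strands: CACGTG (E-box), GAANNTTC and TTCNNGAA (arrays of heat shock units), CCGGAAG (ETS type), CCAAT, and GCGCA followed by any base and GCGC (NRF1 type). TGACGTCA (CRE) and TGATGNAA (ATF4-CHOP type) were searched too and had no match in the 12 windows, while 1.85% and 3.62% of all windows hold them.
HSPE1: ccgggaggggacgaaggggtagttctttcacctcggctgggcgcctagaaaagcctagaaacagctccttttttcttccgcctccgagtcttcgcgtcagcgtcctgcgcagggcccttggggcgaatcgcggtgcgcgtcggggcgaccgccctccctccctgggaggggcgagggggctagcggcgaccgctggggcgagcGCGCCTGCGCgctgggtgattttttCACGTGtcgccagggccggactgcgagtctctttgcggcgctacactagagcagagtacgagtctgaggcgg
HSPD1 second start: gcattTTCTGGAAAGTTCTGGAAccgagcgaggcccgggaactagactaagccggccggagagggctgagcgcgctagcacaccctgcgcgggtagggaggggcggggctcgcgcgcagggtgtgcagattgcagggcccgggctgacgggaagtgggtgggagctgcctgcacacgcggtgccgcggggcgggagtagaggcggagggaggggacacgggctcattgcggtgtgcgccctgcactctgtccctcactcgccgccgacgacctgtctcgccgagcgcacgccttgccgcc
CCT3: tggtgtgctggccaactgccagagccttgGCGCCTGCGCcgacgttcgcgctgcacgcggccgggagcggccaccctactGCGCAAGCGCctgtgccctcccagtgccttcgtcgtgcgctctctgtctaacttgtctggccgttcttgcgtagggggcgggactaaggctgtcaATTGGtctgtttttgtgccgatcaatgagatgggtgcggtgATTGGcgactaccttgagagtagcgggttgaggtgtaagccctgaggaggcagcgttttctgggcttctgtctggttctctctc
CCT2 first start: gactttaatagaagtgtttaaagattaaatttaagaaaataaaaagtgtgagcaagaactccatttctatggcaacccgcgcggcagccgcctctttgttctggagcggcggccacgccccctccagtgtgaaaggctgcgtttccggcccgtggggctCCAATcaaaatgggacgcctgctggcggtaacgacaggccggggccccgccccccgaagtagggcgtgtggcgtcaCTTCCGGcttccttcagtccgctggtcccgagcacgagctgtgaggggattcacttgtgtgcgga
The E-box of the HSPE1 window begins 22 bases before its start and lies in the stretch shared with HSPD1, so it is counted in both windows, and 7.26% of 35116 promoter windows of this length hold one. The second HSPD1 window (chr2:197499791-197500090, minus strand) belongs to a further start inside the gene and holds a run in which GAANNTTC and TTCNNGAA overlap. Such a run of 3 units, TTCNNGAA continued by NNTTC on either strand, was found in 0.49% of all windows and in 1 of the 12 windows here. The CCT3 window (chr1:156338243-156338542, minus strand) holds CCAAT on the opposite strand at 2 places and the NRF1 type motif at 2. The first CCT2 window (chr12:69585209-69585508, plus strand) holds CCAAT and the ETS type motif. CCAAT occurs in 34.6% of all windows and in 4 of the 12 here, and CCGGAAG in 10.3% and in 1. The NRF1 type motif occurs in 5.78% and in 4 of the 12. Its match in the HSPE1 window lies in the stretch shared with HSPD1, so it too is counted in both windows. GAANNTTC occurs in 6.77% of all windows and in 3 of the 12, and TTCNNGAA in 7.74% and in 2. A match describes letters, not binding.

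The mitochondrial pair rose furthest. HSPD1 (ENSG00000144381, GRCh38 chromosome 2, 197486581 to 197516737, minus strand) had 419 and 416 CPM in the abemaciclib libraries, against 197 and 204 CPM in the untreated ones. The groups did not overlap, and both treated libraries held about the same level. The change was 2.08-fold, a log2 fold change of 1.06 ± 0.03 (SE; edgeR quasi-likelihood test, adjusted p = 9.67e-24 over 17207 genes). HSPE1 (ENSG00000115541, chromosome 2, 197499994 to 197503457, plus strand) had 148 and 148 CPM after abemaciclib, against 60.5 and 65.0 CPM untreated. Its rise was 2.35-fold (1.23 ± 0.04, edgeR adjusted p = 4.09e-23). Of all tested genes 13.8% rose at least 2-fold with an adjusted p under 0.05, and these log2 fold changes lay at percentiles 86.9 and 89.8 of the tested genes. In bulk RNA, more cells that express a gene and more RNA per cell cannot be told apart.

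The ratio of HSPE1 to HSPD1 CPM was 0.353 and 0.355 in the abemaciclib libraries, against 0.307 and 0.318 in the untreated ones, so the lid transcript was higher relative to the barrel by a factor of 1.13, a value given without a test. HSPD1 and HSPE1 overlap on opposite strands in the annotation, and how the counting treated strand is not stated, so reads in the overlap could be shared between them and the levels and ratio carry that limit. HSPE1-MOB4, a read-through gene that shares exons with HSPE1, was at 5.87 ± 0.03 CPM after abemaciclib and 5.53 ± 0.03 CPM untreated (SD, n = 2), with a log2 fold change of 0.09 ± 0.14 that did not pass the test (edgeR adjusted p = 0.564). MOB4, which overlaps HSPD1 on the opposite strand, was slightly lower (-0.20 ± 0.08, edgeR adjusted p = 0.0339).

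**Figure D1:**
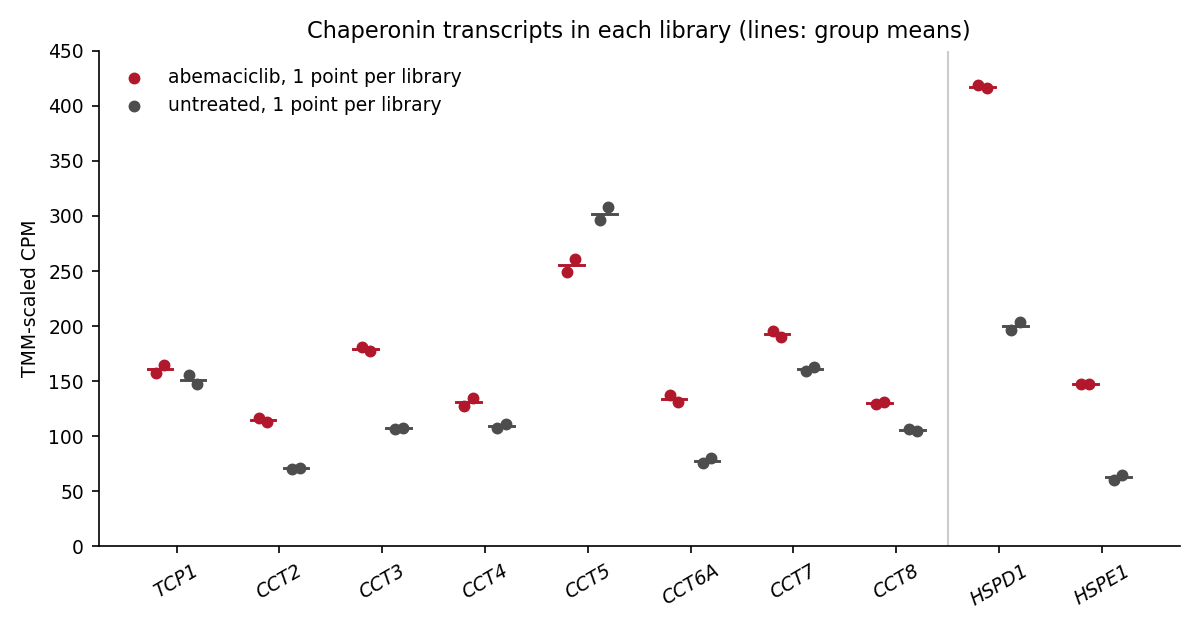
TMM-scaled CPM (vertical axis) of each chaperonin gene, with 1 point per library and a line at each group mean; abemaciclib is drawn left of untreated. HSPD1 lies at 419 and 416 CPM after abemaciclib and 197 and 204 CPM untreated, while CCT5 is the gene whose abemaciclib libraries lie below the untreated ones.

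The CCT subunits had smaller fold changes, in both directions. Of the 8 subunits, 7 were higher and 1 lower after abemaciclib (edgeR adjusted p under 0.05), so that with HSPD1 and HSPE1 the 10 chaperonin genes split into 9 higher and 1 lower. Over all 17207 tested genes 38.0% were called higher and 39.3% lower, 77.3% in either direction, so being called is common here and says little of a single gene. The groups did not overlap for any of the 10 genes, with 9 higher and 1 lower, as was the case for 87.9% of all tested genes, 43.4% higher and 44.5% lower. The median log2 fold change of the CCT subunits was 0.28, beside -0.01 over all tested genes. Summed over the 8 subunits, CCT transcripts came to 1294 and 1303 CPM after abemaciclib, against 1078 and 1093 CPM untreated, a ratio of 1.20, while HSPD1 and HSPE1 together had a ratio of 2.15.

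CCT6A, CCT3 and CCT2 rose by 1.61-fold to 1.72-fold. CCT6A (zeta subunit, ENSG00000146731, chromosome 7, 56051630 to 56063989) had 137 and 131 CPM in the abemaciclib libraries, against 75.9 and 79.9 CPM in the untreated ones. Its log2 fold change was 0.78 ± 0.04 (edgeR adjusted p = 4.83e-18). CCT3 (gamma, ENSG00000163468, chromosome 1, 156308968 to 156367873) had 182 and 178 CPM after abemaciclib, against 107 and 108 CPM untreated, that is 0.74 ± 0.03 on the log2 scale (edgeR adjusted p = 7.41e-19). CCT2 (beta, ENSG00000166226, chromosome 12, 69585334 to 69601570) had 116 and 113 CPM after abemaciclib, against 70.6 and 71.6 CPM untreated (0.69 ± 0.04, edgeR adjusted p = 7.81e-17). In each of the 3 the gap between the groups was wider than the gap between replicates. At least 1.5-fold rises with an adjusted p under 0.05 were seen in 23.3% of all tested genes.

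CCT8, CCT7 and CCT4 rose by smaller amounts. CCT8 (theta, ENSG00000156261, chromosome 21, 29055805 to 29073797) had 129.6 and 131 CPM after abemaciclib, against 107 and 105 CPM untreated (0.30 ± 0.04, edgeR adjusted p = 3.81e-09). CCT7 (eta, ENSG00000135624, chromosome 2, 73233420 to 73253021) had 196 and 189.8 CPM after abemaciclib, against 159 and 163 CPM untreated (0.26 ± 0.03, edgeR adjusted p = 2.56e-08). CCT4 (delta, ENSG00000115484, chromosome 2, 61868089 to 61888804) had 127.5 and 134 CPM after abemaciclib, against 108 and 111 CPM untreated (0.26 ± 0.04, edgeR adjusted p = 1.54e-07). In each of the 3 the lower treated library still lay above the higher untreated one, with folds of 1.20 to 1.23.

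TCP1 and CCT5 stood apart from the others. TCP1 (alpha, ENSG00000120438, chromosome 6, 159778498 to 159789749) had 157 and 165 CPM after abemaciclib, against 155 and 147 CPM untreated, and the nearest libraries of the groups lay closer together than the replicates did. Its log2 fold change of 0.09 ± 0.04 passed (edgeR adjusted p = 0.0179) but did not without untreated replicate 2 (0.053, edgeR adjusted p = 0.212), without abemaciclib replicate 2 (0.07, edgeR adjusted p = 0.225) or with DESeq2 (0.10, adjusted p = 0.123). CCT5 (epsilon, ENSG00000150753, chromosome 5, 10249921 to 10266412) had 249 and 261 CPM in the abemaciclib libraries, against 296 and 308 CPM in the untreated ones. CCT5 was the CCT subunit with the highest level per kilobase of coding sequence in both groups. After abemaciclib CCT7, CCT4 and CCT3 had higher means than CCT5 per kilobase of all annotated exons (53.7, 46.3 and 44.7 against 43.7 CPM). There CCT3 and CCT5 overlapped between libraries. Per kilobase of the longest transcript CCT7 and CCT3 stood above CCT5 (94.9 and 83.6 against 69.4 CPM). Untreated, CCT5 led the subunits with each length. CCT5 was the subunit that fell, to 0.845 of the untreated level (-0.24 ± 0.03, edgeR adjusted p = 6.98e-08). Its log2 fold change lay between -0.27 and -0.19 over 12 alternative settings.

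The CCT transcripts were more even after abemaciclib. Coding sequences are of nearly the same length in all subunits, but the counts also cover untranslated parts, which differ. The longest transcript has 3675 bases in CCT5 and 2005 in CCT8, and values per coding kilobase carry that limit. Per kilobase of coding sequence the highest subunit stood 2.12 and 2.27 times above the lowest in the abemaciclib libraries, against 4.15 and 4.26 times in the untreated ones. CCT5 made up 19.3% and 20.1% of the CCT level per coding kilobase after abemaciclib, against 27.6% and 28.3% untreated. CCT3 made up 14.0% and 13.6% after abemaciclib, against 9.90% and 9.82% untreated. CCT6A made up 10.8% and 10.3% after abemaciclib, against 7.2% and 7.47% untreated, and CCT2 9.11% and 8.83% after abemaciclib, against 6.65% and 6.65% untreated. TCP1 made up 11.9% and 12.3% after abemaciclib, against 14.1% and 13.1% untreated. The shares of CCT7, CCT4 and CCT8 had ratios between groups of 1.00, 1.00 and 1.03. The coefficient of variation over the subunits was 28.3% ± 1.01 after abemaciclib and 54.6% ± 1.21 untreated (SD, n = 2 each). With other lengths the highest subunit stood 2.02 ± 0.01 times above the lowest after abemaciclib and 3.15 ± 0.06 times untreated per kilobase of all annotated exons, and 1.93 ± 0.02 times after abemaciclib and 2.87 ± 0.02 times untreated per kilobase of the longest transcript. The evenness is a description, given without a test.

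**Figure D2:**
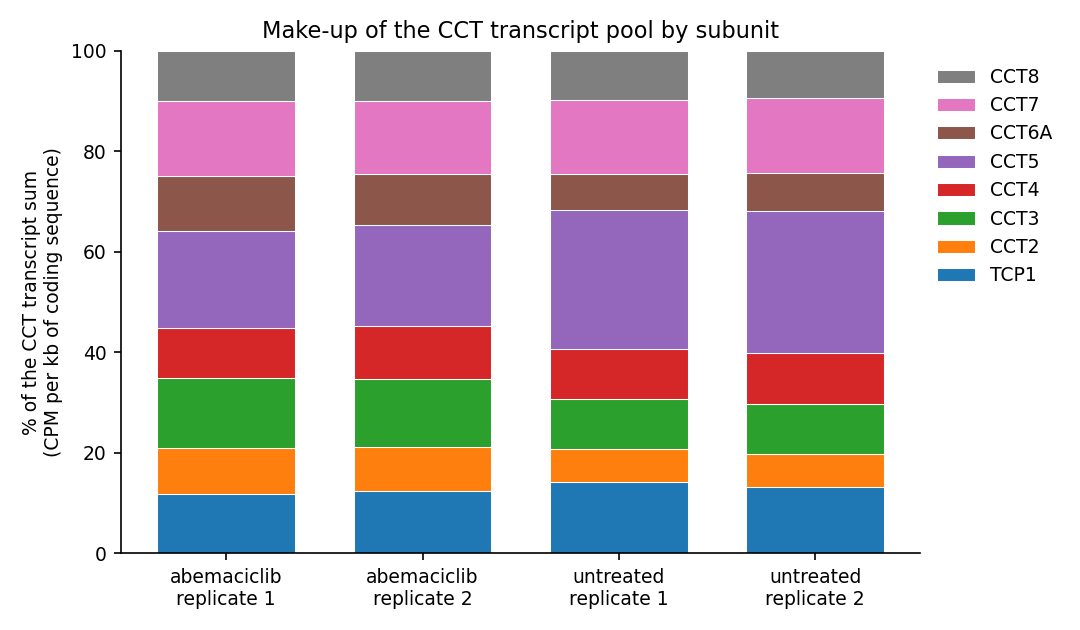
Share of each subunit in the summed CCT level (CPM per kilobase of coding sequence, vertical axis in percent), 1 bar per library, abemaciclib left of untreated. CCT5 takes 19.3% and 20.1% of the bars after abemaciclib and 27.6% and 28.3% in untreated spheres.

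Ordered by level per kilobase of all annotated exons, HSPD1 (98.3 ± 0.44 CPM per kilobase) and HSPE1 (74.7 ± 0.04) led the abemaciclib libraries, followed by CCT7 (53.7 ± 1.15), CCT4 (46.3 ± 1.73), CCT3 (44.7 ± 0.65) and CCT5 (43.7 ± 1.4). CCT4 and CCT3, and CCT3 and CCT5, overlapped between libraries. CCT8 (39.0 ± 0.29), CCT6A (34.4 ± 1.13), TCP1 (32.7 ± 1.06) and CCT2 (26.6 ± 0.46) came last. In untreated libraries CCT5 led (51.8 ± 1.5), before HSPD1 (47.2 ± 1.2), CCT7 (44.8 ± 0.76) and CCT4 (38.7 ± 0.78). HSPE1 (31.7 ± 1.63), CCT8 (31.6 ± 0.40) and TCP1 (30.7 ± 1.17) overlapped there, and CCT3 (26.7 ± 0.12), CCT6A (20.0 ± 0.72) and CCT2 (16.4 ± 0.17) were lowest. This order depends on the length used: with coding length or the longest transcript 29 of the ranks moved and 11 did not, and per coding kilobase HSPE1, whose coding sequence is 306 bases, led in both groups.

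Several chaperonin genes begin head to head with another gene, and the partners did not all follow them. Distances here run between the outermost annotated ends of the genes, which can lie away from the start sites of the promoter windows above. MRPL18, a mitochondrial ribosomal protein gene 63 bases from TCP1, changed by 0.13 ± 0.06 on the log2 scale (edgeR adjusted p = 0.0492), next to 0.09 for TCP1. PSPH, the last enzyme of serine synthesis, lies 26 bases from CCT6A and rose by 0.48 ± 0.07, next to 0.78 for CCT6A. PRADC1, 182 bases from CCT7, rose by 1.18 ± 0.09, next to 0.26 for CCT7. ATPSCKMT, a lysine methyltransferase gene of the ATP synthase c subunit 24 bases from CCT5, rose by 1.00 ± 0.11, while CCT5 fell. AC012640.1, an RNA on the strand of CCT5 that ends 6 bases before it, fell by 3.54 ± 0.23 on the log2 scale, with 0.553 ± 0.14 CPM after abemaciclib and 6.66 ± 0.17 CPM untreated (SD, n = 2). SUMF2 begins 13 bases after CCT6A on the same strand and rose by 0.74 ± 0.03. USP16, tail to tail with CCT8, rose by 0.46 ± 0.07, and FBXO41, tail to tail with CCT7, fell (-0.86 ± 0.08). RHBG lies head to head with CCT3, 1339 bases from its outermost end at 156367873, while the CCT3 window shown above (156338243 to 156338542) lies far inside the gene. RHBG had 28 and 26 counts after abemaciclib and 3 and 1 counts untreated and was called higher (edgeR adjusted p = 1.49e-06). CCT4 overlaps COMMD1 (18.5 CPM after abemaciclib and 9.19 CPM untreated) on the opposite strand, TCP1 overlaps ACAT2 and CCT3 overlaps TSACC. How the counting treated strand is not stated, so reads of such pairs could be shared. Annotated pseudogenes took at most 2.18% of the reads assigned to HSPE1 and its copies, 0.808% for HSPD1 and 4.84% for CCT6A, and adding them to their parents left each of the 10 calls as it was.

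Of the proteins that work with CCT, 6 prefoldin subunits had 1 higher, 2 lower and 3 uncalled, that is with an adjusted p of 0.05 or above. The shares over all tested genes were 38.0% higher and 39.3% lower, so calls in both directions say little of so short a list. PFDN5, which is also known as a MYC-binding protein, had 117 and 119 CPM after abemaciclib, against 206 and 201 CPM untreated (-0.78 ± 0.03, edgeR adjusted p = 1.51e-19). PFDN4 fell too (-0.88 ± 0.10) and PFDN1 rose (0.30 ± 0.05). PFDN2 (0.09 ± 0.05), VBP1 (0.07 ± 0.07) and PFDN6 (0.17 ± 0.08) did not pass, although PFDN2 and PFDN6 did when scaled by library size alone, and PFDN2 without abemaciclib replicate 1 (0.14, edgeR adjusted p = 0.0266). The phosducin-like cofactor PDCL3 had 10.7 and 10.3 CPM after abemaciclib, against 4.15 and 4.31 CPM untreated (1.31 ± 0.12), and TXNDC9, a thioredoxin-domain protein that binds CCT, had 18.1 and 19.0 CPM after abemaciclib, against 8.44 and 8.28 CPM untreated (1.15 ± 0.09). PDCL did not pass (-0.06 ± 0.11), and PDCL2 had too few counts to be tested. In the prefoldin-like complex PDRG1 rose (1.23 ± 0.07), UXT fell (-0.67 ± 0.06), URI1 did not pass (0.09 ± 0.05, but did when scaled by library size alone) and ASDURF was not tested. Of the cofactors that fold tubulin after CCT, TBCE (1.04 ± 0.07), TBCD (0.83 ± 0.05), TBCC (0.52 ± 0.12) and TBCB (0.19 ± 0.05) rose and TBCA fell (-0.18 ± 0.04), the last not with DESeq2 (adjusted p = 0.0594). The symbol TBCE stands on 2 rows of the tables, and the one with more counts is given here; the other, ENSG00000285053, had a log2 fold change of -0.25 ± 0.16 and was uncalled.

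Relatives of CCT that do not belong to the folding ring gave 1 gene higher, 1 lower and 2 uncalled, beside 38.0% higher and 39.3% lower over all tested genes. MKKS, a chaperonin-like protein of BBSome assembly, had 25.0 ± 3.19 CPM after abemaciclib and 20.3 ± 0.40 CPM untreated (SD, n = 2; 0.29 ± 0.08), which did not pass without abemaciclib replicate 1 (edgeR adjusted p = 0.0626). BBS12 fell (-0.46 ± 0.14), which did not hold without untreated replicate 2 (-0.26, edgeR adjusted p = 0.14), without abemaciclib replicate 2 (-0.28, edgeR adjusted p = 0.128) or with DESeq2 (-0.43, adjusted p = 0.134). BBS10 (-0.27 ± 0.13) did not pass, but did without untreated replicate 1 (-0.33) and without abemaciclib replicate 2 (-0.38). CCT6B, the testis form of CCT6A, was at 0.382 ± 0.13 CPM after abemaciclib and 0.657 ± 0.20 CPM untreated, and CCT8L2 had 0 counts in each library.

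**Figure D3:**
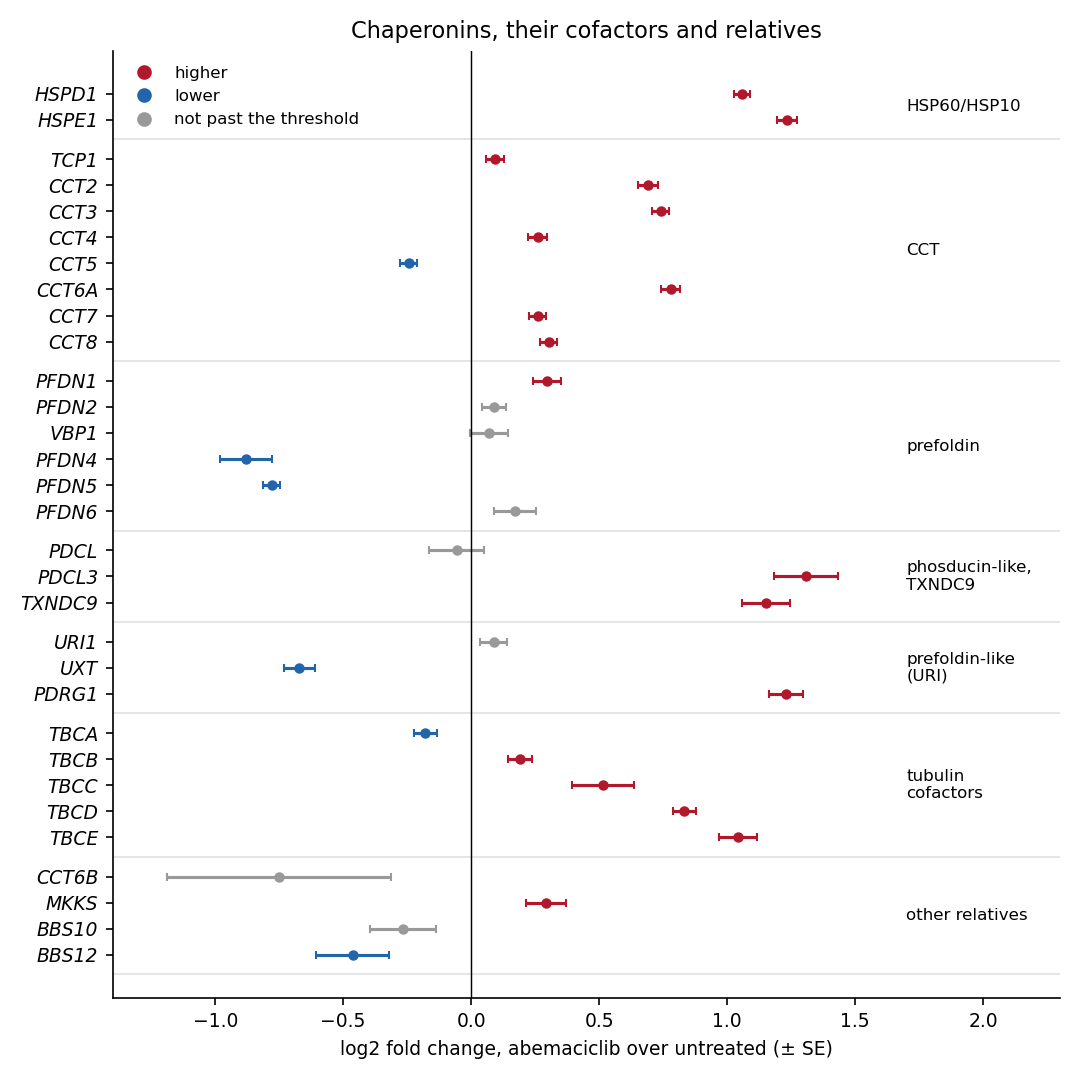
Log2 fold changes (abemaciclib over untreated, horizontal axis, bars are SE from edgeR) of the chaperonins, their cofactors and relatives, coloured by call. HSPE1 (1.23), HSPD1 (1.06), PDCL3 (1.31), PDRG1 (1.23) and TXNDC9 (1.15) lie furthest to the right, PFDN4 (-0.88) and PFDN5 (-0.78) among the furthest to the left.

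The client families of CCT are given beside the 38.0% of all tested genes called higher and 39.3% called lower, and differences between families were not tested. Of 5 actin and actin-related genes 4 were higher and 1 lower: ACTR3 (0.87 ± 0.04), ACTR2 (0.56 ± 0.04) and ACTB (0.48 ± 0.03) rose and ACTG1 fell (-0.20 ± 0.03). Of 11 tubulin genes 7 were higher, 2 lower and 2 uncalled. TUBB3, the class III beta-tubulin typical of neurons, had 204 and 191.5 CPM after abemaciclib, against 65.5 and 69.2 CPM untreated (1.55 ± 0.04), TUBA1A (1.24 ± 0.03) and TUBB2A (0.88 ± 0.04) rose too, and TUBA4A fell (-0.69 ± 0.03). Of 7 WD40 clients 6 were lower and 1 higher, among them the G protein subunits GNB2 (-1.19 ± 0.04), GNB4 (-0.69 ± 0.09) and GNB1 (-0.38 ± 0.03) and the mitotic activator CDC20 (-1.08 ± 0.07). The WD40 gene called higher did not pass with DESeq2, without untreated replicate 2 or without abemaciclib replicate 2. Actins, and likewise alpha-tubulins, are near-identical in sequence, so the counting may have split their reads.

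In the mitochondrion, partners of HSP60 were called in both directions, as were all tested genes, 38.0% of them higher and 39.3% lower. HSPA9, the matrix HSP70 that pulls proteins in ahead of HSP60, had 438 and 456.5 CPM after abemaciclib, against 229.6 and 226 CPM untreated (0.97 ± 0.03, edgeR adjusted p = 8.7e-23). Of the 7 genes of its system 3 were higher, 2 lower and 2 uncalled. TRAP1, the mitochondrial HSP90, fell (-0.51 ± 0.07), HSCB fell (-0.38 ± 0.10, adjusted p = 0.0639 with DESeq2) and the exchange factor GRPEL1 rose (0.15 ± 0.06), which did not hold with DESeq2 (0.17, adjusted p = 0.191), without untreated replicate 2 (0.10) or without abemaciclib replicate 1 (0.14). Of 11 genes of import and presequence cleavage 5 were higher, 3 lower and 3 uncalled, and 8 were higher when scaled by library size alone. The translocase subunits TIMM17A (1.19 ± 0.05), TOMM40 (1.09 ± 0.05), TOMM22 (0.98 ± 0.05) and TIMM23 (0.95 ± 0.05) rose. Of 9 genes of mitochondrial protein quality control, most of them proteases, 4 were higher and 3 lower. AFG3L2 (0.54 ± 0.05) and HTRA2 (0.46 ± 0.06) were up, and CLPP, the matrix peptidase (-0.75 ± 0.06), and SPG7 (-0.44 ± 0.04) were down.

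Over all tested genes 38.0% were called higher and 39.3% lower, against which the counts of the cytosolic chaperone lists are to be read. Of 16 HSP70 and HSP40 genes and their regulators 13 were higher, 2 lower and 1 uncalled, with a median log2 fold change of 0.65. They included the HSP40 genes DNAJB4 (1.72 ± 0.08) and DNAJB1 (1.07 ± 0.03), the exchange factor HSPA4 (1.42 ± 0.04) and the co-chaperone BAG3 (1.26 ± 0.04). Each of 4 small heat shock genes rose (median 1.67): HSPB6 had 101 and 101 CPM after abemaciclib, against 21.3 and 22.1 CPM untreated (2.22 ± 0.05), and HSPB8 (1.18 ± 0.05) and HSPB1 (0.87 ± 0.03) rose too. CRYAB, alpha-B crystallin, which lay under the minimum mean of 10 CPM for naming and was added after its values were seen, had 15.2 and 16.4 CPM after abemaciclib, against 3.44 and 3.67 CPM untreated (2.15 ± 0.12). Of 9 genes of cytosolic HSP90 and its co-chaperones 5 were higher, 2 lower and 2 uncalled. HSP90AA1 (1.01 ± 0.03) and the co-chaperone PPID (0.61 ± 0.06) rose, and the co-chaperones PTGES3 (-0.64 ± 0.03) and FKBP4 (-0.57 ± 0.04) fell. HSP90AB1, the other HSP90 gene of the list, was uncalled (0.03 ± 0.03, edgeR adjusted p = 0.344). Of 11 chaperones of the endoplasmic reticulum 5 were higher, 3 lower and 3 uncalled, with SDF2L1 (0.91 ± 0.08) and CALR (0.71 ± 0.03) up and HSP90B1 (-0.96 ± 0.03) and HSPA5 (-0.56 ± 0.03) down.

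A list of 8 transcription factors tied to heat shock or stress had 7 genes lower and 1 higher, beside 39.3% lower and 38.0% higher over all tested genes. It holds HSF1, HSF2, HSF4, ATF4, ATF5 and DDIT3 and also the broader regulators MYC (-0.53 ± 0.04) and NFE2L2 (-0.22 ± 0.04), both lower. ATF5, a transcription factor tied to the mitochondrial unfolded protein response, had 117 and 114.5 CPM after abemaciclib, against 39.7 and 45.0 CPM untreated (1.44 ± 0.05, edgeR adjusted p = 1.77e-20). HSF4 (-2.13 ± 0.06), ATF4 (-0.70 ± 0.03) and HSF2 (-0.61 ± 0.10) fell. HSF1, the main heat shock factor, named after its values were seen, had 77.1 and 76.8 CPM after abemaciclib, against 86.5 and 84.3 CPM untreated (-0.15 ± 0.04, edgeR adjusted p = 9.94e-04).

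**Figure D4:**
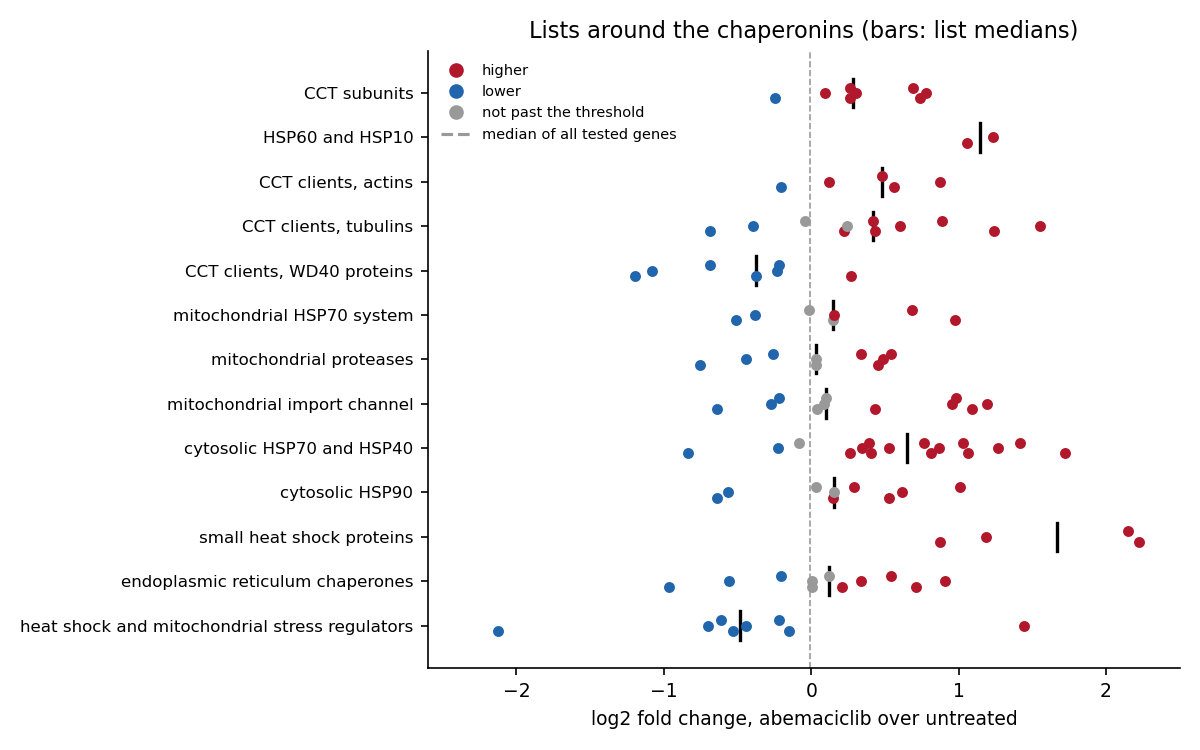
Log2 fold changes (abemaciclib over untreated, horizontal axis) of each tested gene in lists around the chaperonins, coloured by call, with a bar at each list's median and a dashed line at the median of all tested genes. The small heat shock genes have a median of 1.67, HSPD1 and HSPE1 of 1.15, the CCT subunits of 0.28 and the stress regulators of -0.49.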

How the data were processed

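Each library's table, deposited by the authors, holds expected counts per gene (estimated counts that need not be whole), per the file headers. STAR 2.7.2b, RSEM 1.3.1 and GRCh38 are named in the submitters' processing notes. The annotation, read trimming and strand setting are not given there. RSEM divides reads that match several genes, so copies share them.

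Counts were rounded and all genes past filterByExpr (17207) were tested with edgeR 4.0.16 (R 4.3.3, limma 3.58.1): quasi-likelihood F test, TMM scaling, group as the model term, two-sided, Benjamini-Hochberg adjustment with a threshold of 0.05. SE is the size of the log2 fold change divided by the square root of F. DESeq2 1.42.0 was an alternative. The procedure was tested on simulated data. Coordinates and lengths came from GENCODE 29 (96.4% of identifiers matched), promoters from RefSeq. Replicates differed beyond sampling noise (chi-square per degree of freedom 1.95 for abemaciclib and 3.56 for untreated), and each library counted as 1 sample.

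Members and lists were chosen with earlier results of these data known. Named genes were the 10 chaperonins, the small cofactor and relative lists in full, the 4 largest called changes with at least 10 CPM in each other list, the 5 genes nearest in profile, and pseudogenes, overlapping and neighbouring genes. CRYAB, HSF1, HSP90AB1, MYC and NFE2L2 were named outside this rule. In the lists 2 symbols, TBCE among them, had several identifiers, and a single row of each was used. Alternatives were scaling, the filter, DESeq2, a replicate block, leaving out each library, mitochondrial genes left out, pseudogene counts added and the length. The count with CCT6P genes was chosen after seeing the data.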

Additional observations from a re-analysis of the deposited data

How the results depend on the processing

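The direction of each chaperonin gene held under the 12 alternatives run for it, and the call held in 117 of the fold changes and failed in 3, each of them for TCP1. With DESeq2 its log2 fold change was 0.10 and 1 chaperonin gene was not past the threshold. Leaving out 1 library gave TCP1 values of 0.053 to 0.14 and 0 to 1 chaperonin genes not past the threshold. HSPD1 stayed between 1.03 and 1.11 and HSPE1 between 1.19 and 1.29. The labels do not say whether replicate numbers pair the libraries. Deviations of untreated and abemaciclib replicate 1 from their group means had a correlation of 0.00223 over 17207 genes. All genes weighed the same in it, those with few counts included, so it cannot settle whether libraries were paired. A replicate block gave HSPD1 at 1.06 and 6451 genes higher and 6657 lower, against 6542 and 6757 without it, and changed no call of the chaperonin genes. The median of all tested genes moved by 0.054 with scaling by library size alone and by less under the other scalings. Counts of lists moved by over 1.5 times, or to 0, in 17 cases and by less or not at all in 303. With DESeq2, 0 chaperonin relatives, 0 tubulin cofactors and 1 HSP70 or HSP40 gene were lower (1, 1 and 2 in edgeR), 0 WD40 clients were higher (1), and the mitochondrial HSP70 system had 1 higher and 1 lower (3 and 2). With library size alone, 3 prefoldin, 2 prefoldin-like and 8 import genes were higher (1, 1 and 5). Without abemaciclib replicate 1, 0 relatives (1) and 2 prefoldin genes (1) were higher. Without abemaciclib replicate 2, 2 prefoldin-like genes (1) and 0 WD40 clients (1) were higher and 1 HSP70 or HSP40 gene lower (2). Relatives called lower were 2 without untreated replicate 1 and 0 without untreated replicate 2, and WD40 clients called higher were 0 without untreated replicate 2. The chaperonin genes had at least 1632 counts in each library, and 2 libraries a group limit the precision.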

Other observations

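Among the tested genes outside the chaperonins, those whose log2 CPM over the 4 libraries, centred on the gene, lay nearest to the mean of HSPD1 and HSPE1 were LDHB, TRAM2, DUSP14, QPRT and LSM4. LDHB, a subunit of lactate dehydrogenase, had 639 and 642 CPM after abemaciclib, against 281 and 296 CPM untreated, a log2 fold change of 1.15 ± 0.03 and a distance of 0.0119. LSM4, a protein of the U6 snRNP, had 99.1 and 98.5 CPM after abemaciclib and 44.3 and 46.4 CPM untreated. The genes nearest to the mean of the 8 CCT subunits were BACE1, EXOSC6, ZC3H15, APMAP and IDS, at distances of 0.00875 to 0.0147. BACE1, the beta-secretase, had 86.7 and 87.7 CPM after abemaciclib and 67.1 and 68.1 CPM untreated (0.37 ± 0.04). With 4 libraries in 2 groups such likeness mostly reflects the fold change and the replicate order, and it is a description.

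Pseudogenes of the chaperonins held few reads. Of 26 annotated HSPE1 pseudogenes 7 had at least 1 count, summing to 63.9 and 89.4 counts after abemaciclib and 36.4 and 44.5 counts untreated. Of 17 HSPD1 pseudogenes 7 had at least 1 count, with sums of 58.1 and 115 counts after abemaciclib and 34.2 and 49.5 counts untreated. The CCT6P genes, relatives of CCT6A, summed to 93.0 and 130 counts after abemaciclib and 84.1 and 133 counts untreated, and the log2 fold change of CCT6A was 0.76 with their counts added and 0.78 without.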
